A study of Mus musculus with 23 samples.

Results

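The 9 genes described here are Adipoq, Lep, Retn, Cfd, Plin1, Plin4, Cidec, Fabp4 and Pparg, genes of the fat cell that encode its hormones, the coat of its lipid droplet, its fatty acid carrier and its master transcription factor. They were chosen by symbol, and all were found among the 55573 Ensembl IDs that the count matrix lists (9 of 55573). RNA of quadriceps, the large thigh muscle, had been sequenced from 23 C57Bl6 mice (C57BL/6J in the study's methods) of 8 to 10 weeks of age that carried a slow-release pellet under the skin for 14 days. The pellet held 50 mg corticosterone and 50 mg cholesterol, or 100 mg cholesterol as vehicle, and the mice were fasted for 5 hours before they were killed. There were 6 vehicle-treated females, 5 corticosterone-treated females, 6 vehicle-treated males and 6 corticosterone-treated males. F1 to F11 are females and M1 to M12 males, with odd numbers for vehicle and even numbers for corticosterone. The question was how much adipocyte transcript each muscle sample held, whether it differed with corticosterone or sex, and whether the 9 genes kept their proportions to each other within a mouse.

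White adipocytes store triglyceride in a single large droplet and secrete adipokines, and small depots of such cells lie between the muscles and muscle fibers of the limb. PPARγ, the product of Pparg, drives their differentiation and the transcription of most of the other genes listed. Glucocorticoids such as corticosterone, the main glucocorticoid of the mouse, act on adipocytes through the glucocorticoid receptor and are known to raise leptin and to mobilize and redistribute stored fat.

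The promoters of 4 genes are shown, because transcripts of Lep and Cfd shifted against Plin1 in the ratios described further on, while Adipoq stayed close to Plin1. Each line holds the 250 bases before the start of transcription on the coding strand, from RefSeq on GRCm38.p6, whose start of Plin1 lies inside the Ensembl gene. Capitals mark the C/EBP palindrome TTGCGCAA, a binding motif of the C/EBP transcription factors.
Lep, chr6:29059971-29060220, plus strand: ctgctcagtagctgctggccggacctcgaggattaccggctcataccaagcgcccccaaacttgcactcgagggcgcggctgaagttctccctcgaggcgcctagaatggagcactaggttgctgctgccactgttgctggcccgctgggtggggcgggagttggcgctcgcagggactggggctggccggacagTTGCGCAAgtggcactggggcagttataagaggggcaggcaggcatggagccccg
Cfd, chr10:79890603-79890852, plus strand: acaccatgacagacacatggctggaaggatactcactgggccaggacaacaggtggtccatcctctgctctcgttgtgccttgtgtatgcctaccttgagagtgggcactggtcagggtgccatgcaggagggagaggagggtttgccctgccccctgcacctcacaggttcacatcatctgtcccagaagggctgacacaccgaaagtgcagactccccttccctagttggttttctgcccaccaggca
Plin1, chr7:79732777-79733026, minus strand: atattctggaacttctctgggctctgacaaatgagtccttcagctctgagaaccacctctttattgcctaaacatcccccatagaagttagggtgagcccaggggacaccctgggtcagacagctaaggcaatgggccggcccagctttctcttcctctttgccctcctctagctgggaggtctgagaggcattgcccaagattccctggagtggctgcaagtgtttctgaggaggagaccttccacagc
Adipoq, chr16:23146286-23146535, plus strand: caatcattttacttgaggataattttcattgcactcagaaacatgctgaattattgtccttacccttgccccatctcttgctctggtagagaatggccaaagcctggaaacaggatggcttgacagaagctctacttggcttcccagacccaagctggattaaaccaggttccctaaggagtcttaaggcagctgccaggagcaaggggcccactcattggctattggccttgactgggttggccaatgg
Of the 9 genes, 8 had a promoter in the table, with 11 starts among them, and Fabp4 had none. The C/EBP palindrome stood at bases -55 to -48 of the Lep promoter and at 1 of the 11 starts, and in 0.164% of 32851 mouse promoters of this length. The PPAR response element spelled AGGTCANAGGTCA was found at 0 of the 11 starts and in 0.0335% of all promoters. The glucocorticoid response element spelled GNACANNNTGTNC was likewise found at 0 starts, against 0.387% of all promoters. The half-site AGGTCA, of which the PPAR element holds a pair, stood at 2 of the 3 Pparg starts and in 14.02% of all promoters, and the TATA box TATAAA at 1 of these starts and in 12.4% of all promoters. Both strands were searched, and such matches describe letters in these windows only.

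Between 20904150 and 21984477 read pairs per mouse fell on genes, so that depth differed little, and normalization factors ranged from 0.832 to 1.21. The 10 muscle fiber genes listed for the check of the tissue summed to between 108623 and 281195 CPM (counts scaled to library size) in every mouse. Fkbp5, a classical glucocorticoid target, rose with corticosterone, with a log2FC (log2 fold change) of 3.36 in males (SE 0.30, edgeR adjusted p = 6.74e-08) and 3.05 in females (SE 0.30, edgeR adjusted p = 1.77e-06). Tsc22d3, another such target, rose in males (log2FC 1.0, SE 0.26, edgeR adjusted p = 0.00421) and did not pass the threshold in females (log2FC 0.57, SE 0.27, edgeR adjusted p = 0.119). Hepatocyte transcripts, which quadriceps should lack, summed to 2429 CPM in M8, 2394 in F10, 1444 in M9, 1424 in M12 and 1093 in F6 over the 8 genes listed, and to between 15.9 and 306 CPM in the other 18 mice. All but M9 of these 5 mice had received corticosterone. With the 5 left out together, an alternative chosen after seeing the data, Plin4 passed in males (log2FC 1.42, edgeR adjusted p = 8.01e-06) and Lep (5.57, edgeR adjusted p = 0.00693) and Plin4 (0.80, edgeR adjusted p = 0.00511) in females, as with all mice. None of the other genes described passed within a sex then, and Plin1 had a log2FC of 1.63 in females (edgeR adjusted p = 0.355). Mouse F8 stood apart among corticosterone-treated females by its low level of most adipocyte genes, and values without it are given beside the results it touches. Whether males and females were processed in 1 batch is not stated in the sources used here, so a batch and the sex cannot be told apart.

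Corticosterone raised Plin4 in both sexes and Lep in females at an adjusted p under 0.01, while the other adipocyte genes, most of which varied widely between mice of a group, did not pass this threshold within a sex. In males 1 of the 9 genes passed (Plin4, higher), against 26.3% of the 13049 genes tested (13.2% higher and 13.1% lower). In females 2 of 9 passed (Lep and Plin4, both higher), against 13.4% of all genes tested (7.4% higher and 6% lower), and 8 of 9 had a positive log2FC. The median log2FC of the 9 genes was 0.01 in males and 2.08 in females, where that of all tested genes was -0.02 and 0.04. The groups did not overlap for 1 of 9 genes in either sex, Plin4, against 21.9% of all genes in males and 7.72% in females. In female mice 8 of the 9 genes reached an unadjusted p under 0.05 in edgeR's quasi-likelihood test, and in males 2 did. Shares of all genes at this unadjusted p, or called by DESeq2 or limma-voom, were not counted. Counts of those kinds, here and further on, therefore have no background beside them. These comparisons are of whole muscle samples, in which more or fewer adipocytes and more or less RNA per adipocyte cannot be told apart.

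**Figure D1:**
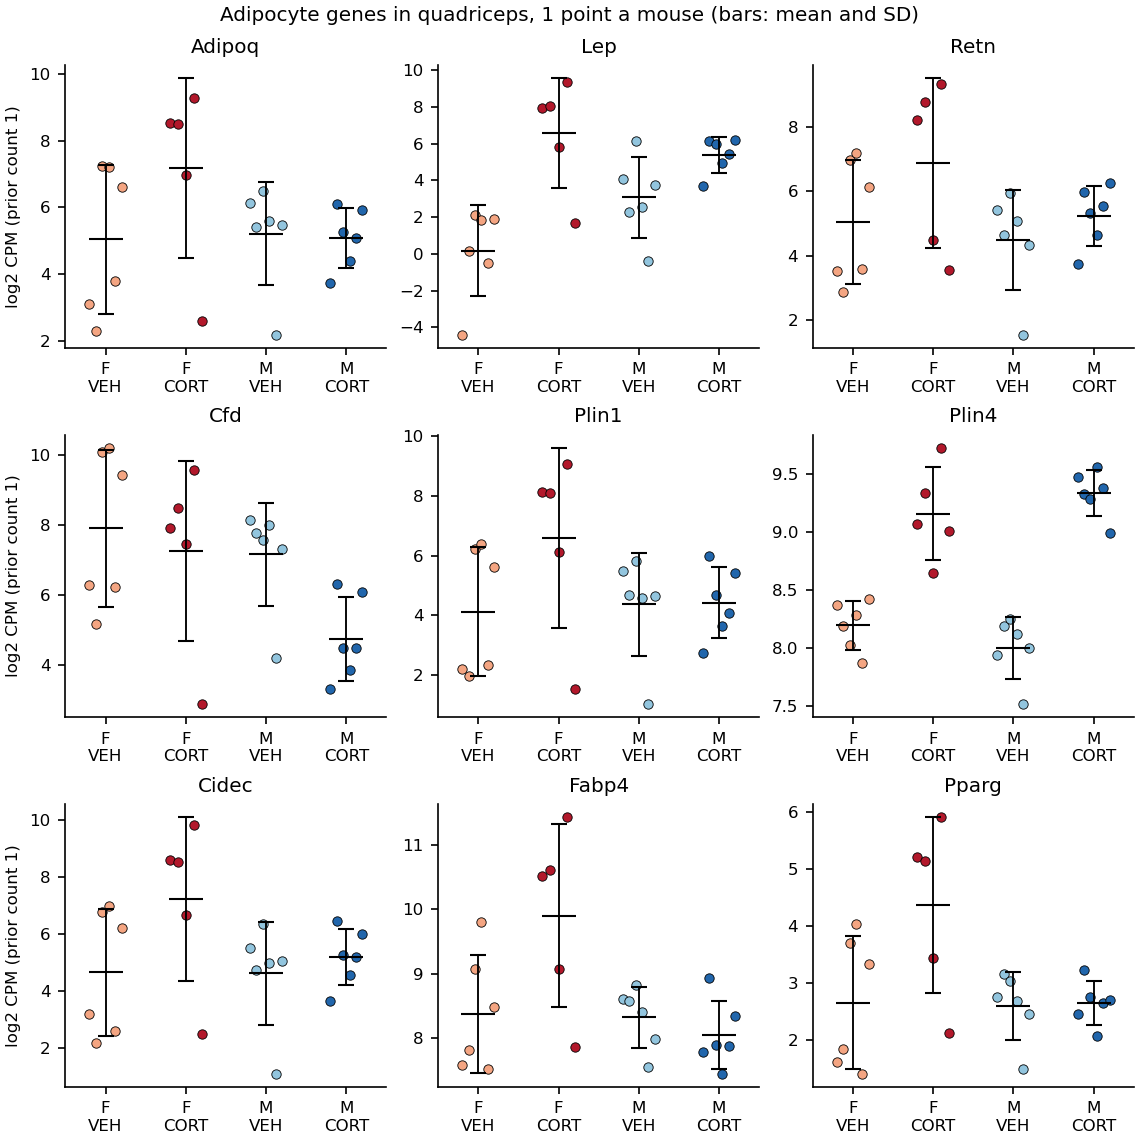
Level of each of the 9 genes as log2 CPM (vertical axis, prior count 1) by group (horizontal axis; F, female; M, male; VEH, vehicle; CORT, corticosterone), with 1 point a mouse and the mean and SD as bars. F8 is the lowest corticosterone-treated female for every gene but Plin4, and the Plin4 groups of each sex do not overlap.

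The spread between mice of a group was the most prominent property of these genes. The within-group SD of log2 CPM was 2.24 for Lep, 2.08 for Plin1, 2.04 for Cidec, 1.93 for Cfd, 1.92 for Adipoq and 1.82 for Retn, where the median of all tested genes was 0.241. These 6 genes ranked between 42 and 131 from the most variable among the 13049 genes. Pparg (SD 0.995) and Fabp4 (SD 0.878) varied less and Plin4 (SD 0.274) hardly more than the median gene. Within corticosterone-treated females the highest mouse exceeded the lowest 206-fold for Lep, 190.2-fold for Plin1, 105-fold for Adipoq and 2.12-fold for Plin4. The same mice were at the extremes across genes, as F6 was highest for all 9 genes in that group and F8 lowest for 8 of them.

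Lep encodes leptin, the hormone that reports fat stores to the brain, and is transcribed from chromosome 6 (29060220 to 29073877, mm10, plus strand). Vehicle-treated females ranged from 0 counts in F1, which allows up to 0.146 CPM, over a median of 2.30 to 4.25 CPM in F3. Corticosterone-treated females had 660.1 CPM in F6, 264 in F2, 241 in F10, 55.3 in F4 and 3.20 in F8. Thus 4 of 5 treated mice lay above every vehicle-treated female, and only F8 lay among them. The log2FC was 6.79 (SE 1.15, edgeR adjusted p = 0.000284), and 7.11 without F8 (edgeR adjusted p = 5.08e-05). Vehicle-treated males ranged from 0.717 CPM in M7 over a median of 9.68 to 71.6 CPM in M3, and corticosterone-treated males from 12.8 in M10 over 52.2 to 73.5 CPM in M8. Their groups overlapped, as M3 lay at the level of the treated males, and the log2FC of 1.37 (SE 0.89, edgeR adjusted p = 0.232) did not pass. The difference between the responses of the sexes was -5.42 on the log2 scale (male minus female, SE 1.37, edgeR adjusted p = 0.0202) and did not pass 0.01. Without F8 it passed (-5.74, edgeR adjusted p = 0.00387), as it did in DESeq2 (-5.40, adjusted p = 0.00344). Vehicle-treated males had more Lep than vehicle-treated females by a log2FC of 3.09 (SE 1.0), which did not pass either (edgeR adjusted p = 0.124).

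Cfd encodes adipsin, the complement factor D that adipocytes secrete in large amounts (chromosome 10, 79890853 to 79892655, plus strand). Of the 4 secreted products it alone had a log2FC that was not positive in females. Vehicle-treated males ranged from 18.2 CPM in M7 over a median of 204 to 281 CPM in M1, and corticosterone-treated males from 9.77 in M10 over 22.2 to 79.0 CPM in M12. All 6 treated males lay below the mean of the vehicle-treated males, and only M7 kept the groups from being separate. The log2FC in males was -2.39 (SE 0.90, edgeR adjusted p = 0.0392), which missed 0.01, and it passed when males were fitted alone (-2.38, edgeR adjusted p = 0.00784). Vehicle-treated females ranged from 36.1 CPM in F11 over 384 to 1198 CPM in F5. The treated females had 767 CPM in F6, 361 in F2, 244 in F10, 175 in F4 and 7.23 in F8, inside or below the range of the vehicle group (log2FC -0.77, SE 0.91, edgeR adjusted p = 0.566).

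Adipoq, the gene of adiponectin, an insulin-sensitizing hormone (chromosome 16, 23146536 to 23158028, plus strand), ranged from 4.81 CPM in F11 over 56.1 to 150.4 CPM in F3 among vehicle-treated females. With corticosterone it was 626 CPM in F6, 368 in F10, 366 in F2, 126 in F4 and 5.95 in F8. The log2FC in females was 2.08 (SE 0.88, edgeR adjusted p = 0.0846) and 2.39 without F8 (edgeR adjusted p = 0.0269). In males the vehicle group ranged from 4.45 in M7 over 46.3 to 89.2 CPM in M3 and the treated group from 13.3 in M10 over 35.8 to 68.6 CPM in M12, with full overlap (log2FC -0.35, SE 0.83, edgeR adjusted p = 0.767). Retn encodes resistin, an adipokine of rodents linked to insulin resistance (chromosome 8, 3655770 to 3660110, plus strand). Vehicle-treated females ranged from 7.24 CPM in F11 over 40.9 to 146 CPM in F5. The treated females had 638 CPM in F6, 438 in F2, 294 in F10, 22.4 in F4 and 11.9 in F8. For Retn as for Adipoq, F4 as well as F8 stayed in the vehicle range, and F4 did so for Cfd, Plin1, Cidec, Fabp4 and Pparg too. The log2FC of Retn in females was 2.18 (SE 0.88, edgeR adjusted p = 0.0713), and 2.49 without F8 (edgeR adjusted p = 0.0282). Males ranged from 2.87 in M7 over 29.2 to 62.2 CPM in M3 with vehicle and from 13.3 in M10 over 43.1 to 76.3 CPM in M8 with corticosterone (log2FC 0.51, SE 0.83, edgeR adjusted p = 0.658).

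The coat proteins of the lipid droplet differed from each other. Plin1 encodes perilipin 1, which covers the adipocyte droplet and controls access of lipases (chromosome 7, 79720218 to 79732903, minus strand). Vehicle-treated females ranged from 3.84 CPM in F11 over 27.2 to 82.99 CPM in F5, and the treated females had 543 CPM in F6, 278 in F10, 277 in F2, 70.2 in F4 and 2.85 in F8. The log2FC of 2.67 (SE 0.95, edgeR adjusted p = 0.0423) missed the threshold, as did 2.99 without F8 (edgeR adjusted p = 0.012), and F8 was below every vehicle-treated female. Males ranged from 1.96 in M7 over 25.3 to 56.7 CPM in M3 with vehicle and from 6.64 in M10 over 21.1 to 62.9 CPM in M12 with corticosterone (log2FC -0.08, SE 0.89, edgeR adjusted p = 0.948). Cidec, whose product fuses droplets into a large one (chromosome 6, 113424634 to 113435760, minus strand), followed Plin1, with a log2FC of 2.69 in females (SE 0.96, edgeR adjusted p = 0.0414) and 0.26 in males (SE 0.88, edgeR adjusted p = 0.838). Its treated females had 914 CPM in F6, 383 in F10, 372 in F2, 101 in F4 and 5.56 in F8, against 4.5 to 127 CPM with vehicle. Males ranged from 2.10 in M7 over 32.6 to 81.5 CPM in M3 with vehicle and from 12.7 in M10 over 37.9 to 87.7 CPM in M12 with corticosterone.

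Plin4, a perilipin of small droplets that muscle transcribes too (chromosome 17, 56100591 to 56109803, minus strand), did not follow the other droplet genes. Vehicle-treated males ranged from 182 in M7 over 266 to 305 CPM in M3, and corticosterone-treated males from 509 in M8 over 655 to 757 CPM in M4. In females the vehicle group ranged from 233 in F7 over 301 to 343 CPM in F9, and the treated females had 849 CPM in F6, 647 in F2, 538 in F10, 516 in F8 and 401 in F4. Every treated mouse of either sex lay above every vehicle-treated mouse of that sex, F8 and F4 included. The log2FC was 1.33 in males (SE 0.16, edgeR adjusted p = 1.37e-06) and 1.0 in females (SE 0.16, edgeR adjusted p = 0.000173), and the difference between the responses was 0.33 (male minus female, SE 0.22, edgeR adjusted p = 0.31). An interval of 2 SE on either side of that difference ran from -0.11 to 0.77. If a log2FC beyond 1 is asked for in addition, the female call is lost and the male call stays. The exons of Plin4 overlap those of Hdgfl2, on the opposite strand, by 17 bases.

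Fabp4 encodes the fatty acid carrier of adipocytes, which endothelial cells and macrophages make as well (chromosome 3, 10204088 to 10208576, minus strand). Its vehicle-treated females ran from 184 CPM in F7 over 292 to 889 CPM in F5, and the treated females had 2752 CPM in F6, 1555 in F2, 1464 in F10, 541 in F4 and 233 in F8. In males the vehicle group ranged from 188 in M7 over 360.3 to 452 CPM in M3 and the treated group from 175 in M4 over 237 to 491 CPM in M12. The log2FC was 1.72 in females (SE 0.48, edgeR adjusted p = 0.012) and -0.25 in males (SE 0.46, edgeR adjusted p = 0.689). Pparg (chromosome 6, 115360951 to 115490399, plus strand) encodes the transcription factor that drives adipocyte differentiation. With vehicle, females ranged from 2.60 CPM in F7 over 6.77 to 16.4 CPM in F5, and the treated females had 60.1 CPM in F6, 37.1 in F10, 35.0 in F2, 10.8 in F4 and 4.33 in F8. In males Pparg ranged from 2.77 to 8.88 CPM with vehicle and from 4.15 to 9.35 CPM with corticosterone (log2FC 0.01, SE 0.51, edgeR adjusted p = 0.993). The female log2FC of 1.86 (SE 0.52, edgeR adjusted p = 0.0116) lay just outside the threshold, as that of Fabp4 did. Without F8 both passed, at 1.99 for Fabp4 (edgeR adjusted p = 0.00162) and 2.14 for Pparg (edgeR adjusted p = 0.00158). Without F4 the edgeR adjusted p was 0.00547 for Fabp4 and 0.00505 for Pparg. Without F5, the vehicle-treated female with the most Ucp1 transcript (described further on), the edgeR adjusted p was 0.00321 and 0.00592. Pparg alone also passed without F3 (edgeR adjusted p = 0.00971).

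**Figure D2:**
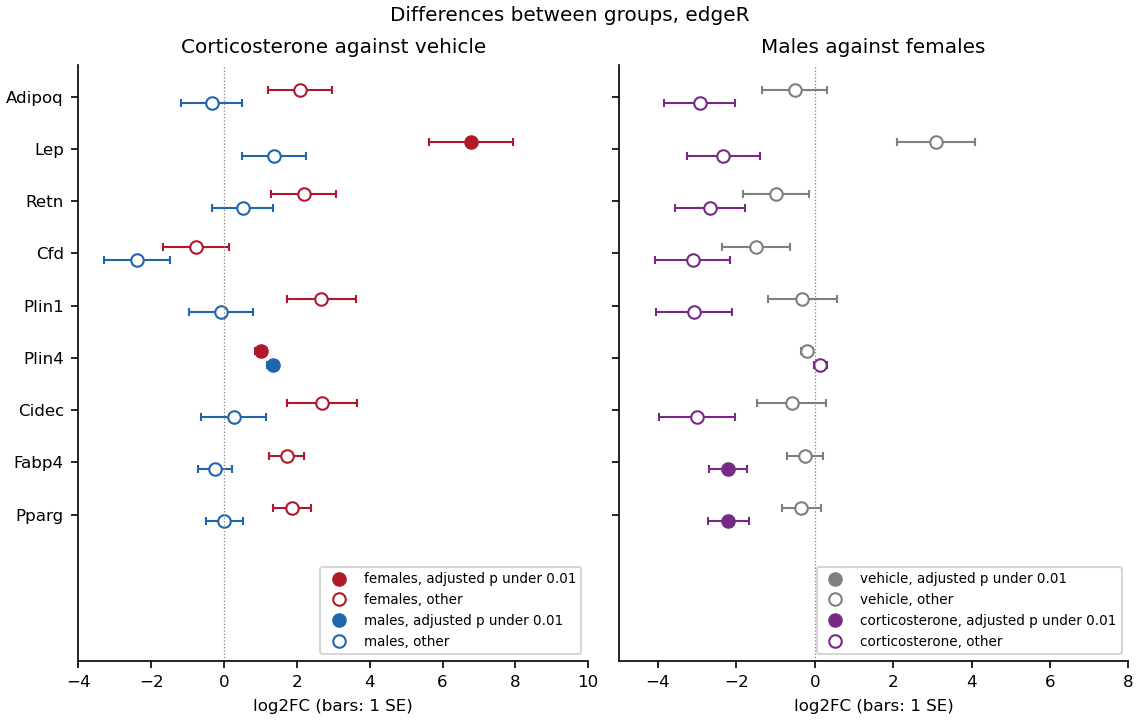
Log2FC of each gene (horizontal axis, bars of 1 SE), for corticosterone against vehicle in each sex (left) and for males against females under each treatment (right), with filled points where the edgeR adjusted p was under 0.01. Filled points are Lep and Plin4 in females, Plin4 in males, and Fabp4 and Pparg between the corticosterone-treated sexes.

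The 2 responses differed past the threshold for 0 of the 9 genes in edgeR's quasi-likelihood test, against 0.69% of all genes tested. At an unadjusted p under 0.05, 4 genes differed in edgeR, and 8 of 9 had a lower log2FC in males. DESeq2 called 1, Lep, and limma-voom 0. Between vehicle-treated males and females 0 of 9 passed in edgeR, DESeq2 and limma-voom, against 0.958% of all genes in edgeR, and 1 (Lep) had an unadjusted p under 0.05 in edgeR. Between corticosterone-treated males and females 2 of 9 passed, both lower in males, against 23.3% of all genes (9.31% higher and 14% lower in males). They were Fabp4 (log2FC -2.22, SE 0.49, edgeR adjusted p = 0.00153) and Pparg (log2FC -2.20, SE 0.53, edgeR adjusted p = 0.0028). All 6 treated males lay below the mean of the treated females for both, with overlap at F8. Of the others, Adipoq, Lep, Retn, Cfd, Plin1 and Cidec had log2FC between -3.12 and -2.33 and edgeR adjusted p between 0.013 and 0.0516, and Plin4 had 0.14 (SE 0.16, edgeR adjusted p = 0.505). This comparison turned on F8 and F6. Without F8 7 of the 9 genes passed, without F6 1 (Fabp4), and without the vehicle-treated F11 3, Cfd being added with an edgeR adjusted p of 0.00956. Without M8 and F10 1 passed, Fabp4, and Pparg had an edgeR adjusted p of 0.0172. Without the 5 mice of high hepatocyte transcripts 0 passed in edgeR, where Fabp4 had a log2FC of -1.80 (edgeR adjusted p = 0.0494) and Pparg of -1.53 (edgeR adjusted p = 0.132), with 3 treated females left. With all mice in, DESeq2 called 7 of the 9, and edgeR with the replicate number as a block called 0.

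Levels of different genes are compared per kb of their longest principal transcript. In vehicle-treated females the order of mean CPM per kb was Cfd (575, SD 586), Fabp4 (444, SD 308), Adipoq (54.8, SD 54.4), Retn (54.3, SD 54.2), Plin4 (51.3, SD 7.36), Cidec (32.1, SD 32.5), Plin1 (13.1, SD 13.2), Pparg (4.57, SD 3.32) and Lep (0.674, SD 0.560). Neighbours in this order differed by less than the larger of their SD, except at the steps from Fabp4 to Adipoq and from Pparg to Lep. In corticosterone-treated females the mean CPM per kb of Fabp4 was 1461 (SD 1104) and that of Lep 75.1 (SD 79.3), the latter above Pparg at 16.7 (SD 12.7) and near Plin1 at 83.1 (SD 75.2). In males Fabp4 led in both groups, with 373 (SD 108) and 314 (SD 127) CPM per kb. Cfd was the next with vehicle at 203 (SD 102), and with corticosterone Plin4 was, at 113 (SD 14.7), with Cfd at 38.9 (SD 32.1).

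Ratios of counts within a mouse showed how far the 9 genes moved as 1 block. A ratio needs no scaling to library size, and it holds the share of adipocyte RNA in the sample fixed as far as both genes come from adipocytes. The within-group SD of the log2 ratio was 0.247 for Plin1 and Cidec, 0.319 for Adipoq and Plin1, 0.32 for Adipoq and Cidec, and 0.396 for Adipoq and Cfd. The same genes taken singly had an SD of log2 counts between 1.97 and 2.13. Fabp4 and Pparg formed another close pair, with 0.268, against 0.952 and 1.06 taken singly. The ratios of Plin1 to Fabp4 and to Pparg varied more (SD 1.32 and 1.20), as did that of Plin1 to Plin4 (SD 1.99). Lep went with the block less closely, with an SD of 0.997 against Plin1 and 2.16 against Plin4. These SD describe 23 mice and have no test.

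**Figure D3:**
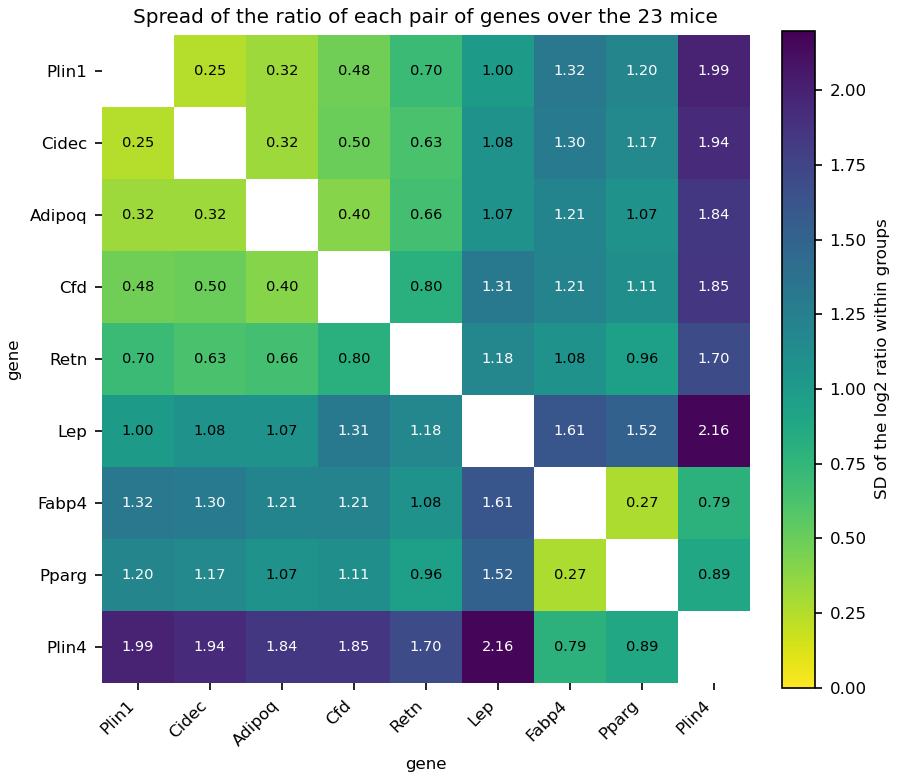
SD within groups of the log2 ratio of counts for each pair of the 9 genes (both axes; colour and printed number), over 23 mice. Plin1, Cidec and Adipoq keep their ratios within an SD of 0.32, Fabp4 and Pparg within 0.27, and Plin4 has SD of 1.70 and above against Adipoq, Lep, Retn, Cfd, Plin1 and Cidec.

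Against Plin1, corticosterone raised Lep and lowered Cfd in both sexes. Each of 9 ratios was compared between groups by a two-sided exact permutation test, with Benjamini-Hochberg adjustment over 36 comparisons and a threshold of 0.05. In males 4 of 9 ratios passed and in females 3, both Lep ratios among them in each sex. Ratios of other genes were not counted. The counts of ratios, and the ratios without overlap further on, therefore have no background beside them. Adipoq/Plin1 was not among the ratios that passed, with differences of -0.19 for males (SE 0.16) and -0.34 for females (SE 0.22). With the 5 mice of high hepatocyte transcripts left out together, 0 of 36 comparisons passed (exact permutation, smallest adjusted p = 0.0693). The smallest exact permutation p that could arise was then 0.0238 in females, 0.0159 in males and 0.0571 between the treated sexes. The last could not pass, and the others only if many of the 36 comparisons reached so small a p. The loss of these calls therefore does not show smaller differences. The log2 differences of Lep/Plin1 were then 3.85 in females and 2.60 in males, and those of Cfd/Plin1 -2.79 and -2.58.

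The Lep/Plin1 ratio was at most 0.284 in every vehicle-treated female (median 0.0661) and lay between 0.788 and 1.22 in all 5 treated females. Its lowest value, 0.0108 in F1, was set by the 1 added to 0 Lep counts. On the log2 scale the treated females were at 0.28 in F6, 0.16 in F8, -0.07 in F2, -0.20 in F10 and -0.34 in F4. F8, which had hardly any adipocyte transcript, thus had the same proportion of Lep to Plin1 as the others of its group. The groups did not overlap, with a mean log2 difference of 3.89 (SE 0.67, exact permutation p = 0.00433, adjusted p = 0.0195), where 0.00433 is the smallest p that 6 against 5 mice can give. Without F8 it was 3.85 (exact permutation, adjusted p = 0.0264), and the lowest difference over all alternatives was 3.37. In males the log2 ratio rose from a median of -1.40, with M11 lowest at -2.42 and M3 highest at 0.34, to a median of 1.11 from 0.16 in M12 to 1.33 in M6. The difference was 2.27 (SE 0.44, exact permutation p = 0.00433, adjusted p = 0.0195), with M3 above M12. Set against Adipoq in place of Plin1, Lep rose by 4.23 (SE 0.73) in females and 2.45 (SE 0.45) in males, with no overlap in either sex (exact permutation, adjusted p = 0.0195 for both). Whether the rise differed between the sexes was not tested.

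The Cfd/Plin1 ratio fell in both sexes, also with no overlap. Vehicle-treated females had a ratio of 9.31 in F11 to 17.3 in F1 (median 14.6), and the treated females had log2 ratios of 1.33 in F8, 1.32 in F4, 0.50 in F6, 0.38 in F2 and -0.19 in F10, which is 0.878 to 2.51 on the linear scale. The log2 difference was -3.13 (SE 0.32, exact permutation p = 0.00433, adjusted p = 0.0195), and -3.29 without F8. Vehicle-treated males had a ratio of 3.34 in M3 to 10.8 in M5 (median 7.46), and treated males 0.877 in M2 to 1.57 in M8 (median 1.28). Their log2 difference was -2.47 (SE 0.27, exact permutation p = 0.00216, adjusted p = 0.0195), 0.00216 being the smallest p for 6 against 6. By this measure, Cfd transcript per Plin1 transcript was lower in each treated mouse than in each vehicle-treated mouse of its sex, while the CPM of Cfd overlapped between the groups.

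Among the other ratios Cidec/Plin1 rose in males, from a mean log2 ratio of 0.26 (SD 0.22) to 0.78 (SD 0.26), a difference of 0.52 (SE 0.14, exact permutation p = 0.00433, adjusted p = 0.0195). The groups overlapped, since M12 at 0.48 lay below M3 at 0.52. In females the mean log2 ratio was 0.55 (SD 0.28) with vehicle and 0.62 (SD 0.22) with corticosterone, and did not pass (difference 0.07, SE 0.15, exact permutation, adjusted p = 0.706). Retn/Plin1 in males differed by 0.70 (SE 0.24, exact permutation, adjusted p = 0.0501) and missed the threshold, and it passed without M5, M7, M12 or F8 (exact permutation, adjusted p = 0.0445, 0.0334, 0.0173 and 0.0413), the last through the adjustment alone. In females it differed by -0.65 (SE 0.60, exact permutation, adjusted p = 0.515), with F4 at -1.64 and F8 at 2.04 on the log2 scale as extremes. Without F8 it passed (-1.09, exact permutation, adjusted p = 0.0413), as Pparg/Plin1 did (-1.48, exact permutation, adjusted p = 0.0264). Plin4/Plin1 and Fabp4/Plin1 passed in neither sex with all mice in, and Plin4/Plin1 passed in males without M7 (1.86, exact permutation, adjusted p = 0.0416).

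**Figure D4:**
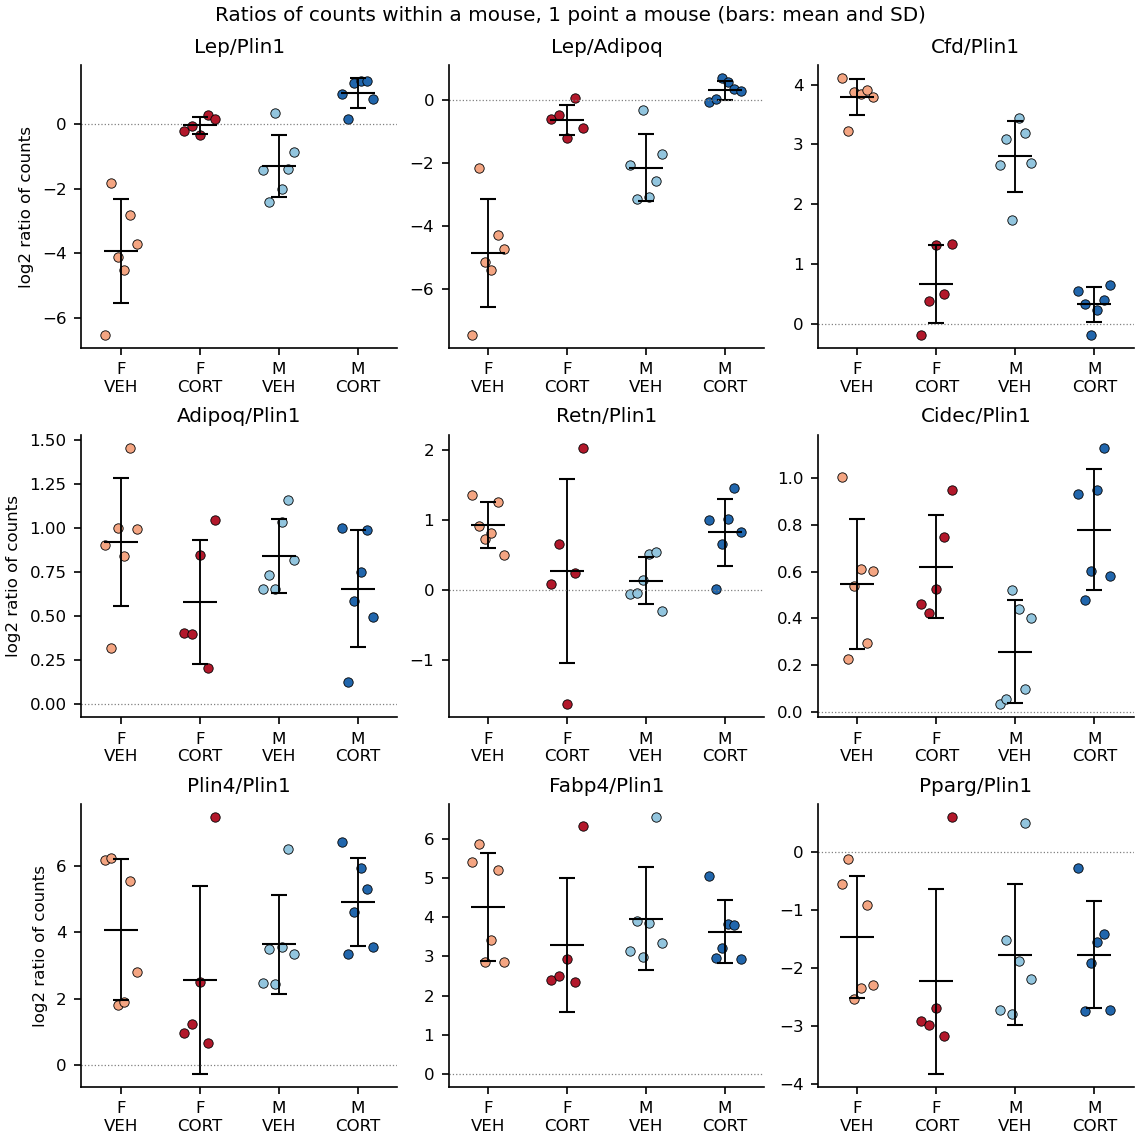
Log2 ratio of counts within a mouse (vertical axis, 1 added to each count) for 9 pairs of genes by group (horizontal axis; F, female; M, male; VEH, vehicle; CORT, corticosterone), with 1 point a mouse, the mean and SD as bars, and a dotted line at equal counts. Lep/Adipoq lies higher and Cfd/Plin1 lower with corticosterone in both sexes without overlap, and for Plin4, Fabp4 and Pparg against Plin1 the highest points of the treated females and vehicle-treated males are F8 and M7.

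Between the sexes with vehicle, 4 of 9 ratios passed. Males had more Lep per Plin1, by 2.63 on the log2 scale (SE 0.77, exact permutation p = 0.00649, adjusted p = 0.0234), and per Adipoq, by 2.71 (SE 0.82, exact permutation, adjusted p = 0.026). They had less Retn per Plin1 (-0.80, SE 0.19, exact permutation, adjusted p = 0.0234) and less Cfd per Plin1 (-1.0, SE 0.27, exact permutation, adjusted p = 0.0195). None of these 4 was free of overlap between the sexes. With corticosterone 2 ratios passed, both higher in males, Lep/Plin1 by 1.0 (SE 0.22, exact permutation, adjusted p = 0.026) and Lep/Adipoq by 0.93 (SE 0.24, exact permutation, adjusted p = 0.036). Both calls were lost when F2, F4 or F10 was left out, with exact permutation adjusted p of 0.0539 for Lep/Plin1 and 0.0735 for Lep/Adipoq each time. Leaving out F8 (adjusted p = 0.0514, exact permutation) or any of M2, M4, M6 and M8 (adjusted p = 0.0659 each, exact permutation) ended the call of Lep/Adipoq alone. Without F8 Plin4/Plin1 (3.58, exact permutation, adjusted p = 0.0264) and Fabp4/Plin1 (1.09, exact permutation, adjusted p = 0.0413) passed, both higher in males.

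Genes outside the list were ranked by how constant their ratio to each of the 9 genes was over the 23 mice. Ranked were 9553 genes with a mean of at least 5 CPM. The SD used here includes differences between groups, unlike the within-group SD given above. The SD of the log2 ratio to Adipoq was smallest for Lgals12 (0.355), a galectin of the adipocyte droplet, Acp5 (0.376), Slc7a10 (0.399), an amino acid transporter of white adipocytes, and Prkar2b (0.447), a regulatory subunit of protein kinase A. They were followed by Slc36a2, Pck1, Cdo1 and Cd1d1, with 0.512 to 0.596, where Adipoq alone had an SD of 1.99. Lgals12, Prkar2b and Slc7a10 were also the 3 closest to Plin1 (0.318 to 0.380) and to Cidec (0.311 to 0.435). Retn was closest to Car5b (0.432), Cdo1 and Slc36a2. By this measure Cfd had no close follower, its nearest being Slc1a3 (1.12), Adrb3 (1.18) and B3galt2 (1.24). Nor had Lep, with Cdsn (1.14), Serpina3n (1.35) and Hp (1.49). Differences between groups add to these SD, and the within-group SD of the log2 ratio of Cfd and Adipoq was 0.396. Fabp4 was closest to Pygb (0.274), Tmem120a (0.290) and Lipe (0.299), and Pparg to Lipe (0.226), the hormone-sensitive lipase, Adcy5 (0.368) and Sfxn1 (0.378). Plin4 was closest to Nr1h3 (0.230), the liver X receptor α, Klf6 (0.254) and Napepld (0.269).

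The other genes of adipocytes and of droplets were counted over lists of known members. Of 16 further adipocyte markers 7 rose in females, where 7.4% of all genes tested rose, and 0 in males, where 13.2% did, with a median log2FC of 2.19 and 0.01. In males 1 marker had an unadjusted p under 0.05 in edgeR, Car3, which was lower with corticosterone (log2FC -1.73, SE 0.59, edgeR adjusted p = 0.0247). DESeq2 called it alone in males, and limma-voom called 0. The 4 most abundant of them were Car3 and Gpd1, which muscle transcribes as well, and Thrsp and Cyp2e1. Thrsp, a gene of lipid synthesis, went from 60.8 CPM (SD 65.5, n = 6) to 516 CPM (SD 473, n = 5) in females (log2FC 3.08, SE 0.77, edgeR adjusted p = 0.00561). The others did not pass in females. Their log2FC was -0.65 for Car3 (edgeR adjusted p = 0.462), -0.09 for Gpd1 (edgeR adjusted p = 0.727) and 1.68 for Cyp2e1 (edgeR adjusted p = 0.15). Between the corticosterone-treated sexes 8 of 16 were lower in males and 0 higher, against 14% and 9.31% of all genes, with a median log2FC of -2.53. Of 18 droplet proteins and lipolysis genes tested, 11 rose in females and 4 in males, against 7.4% and 13.2% of all genes, and 0 fell in either. Between the treated sexes 9 of the 18 were lower in males, against 14% of all genes. Pnpla2, the adipose triglyceride lipase and the most abundant of them, rose in both, from 250.5 CPM (SD 75.2) to 831 CPM (SD 237) in females (log2FC 1.73, SE 0.22, edgeR adjusted p = 1.82e-05) and from 285 CPM (SD 70.1) to 630.1 CPM (SD 109) in males (log2FC 1.15, SE 0.21, edgeR adjusted p = 0.000195). The difference of the 2 responses passed for 0 of the 16 markers and 0 of the 18 droplet and lipolysis genes in edgeR, against 0.69% of all genes, where 6 and 11 had an unadjusted p under 0.05. DESeq2 called 1 and 3 of them and limma-voom 2 and 4.

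Of 13 other secreted adipocyte factors tested, 4 rose and 2 fell in females and 2 rose and 4 fell in males. Of all genes tested 7.4% rose and 6% fell in females and 13.2% rose and 13.1% fell in males, and the counts of the lists that follow, all small, stand beside these shares. Angptl4, an inhibitor of lipoprotein lipase, rose in females (19.1 to 111 CPM, log2FC 2.55, SE 0.35, edgeR adjusted p = 4.47e-05) and did not pass in males (log2FC 0.57, SE 0.33, edgeR adjusted p = 0.176). Of 7 receptors of the adipokines, 3 rose and 1 fell in females and 2 rose and 1 fell in males. Adipor2, a receptor of adiponectin, rose and Cdh13, its cadherin receptor, fell in both sexes, each by less than 0.6 on the log2 scale. Of 13 PPAR and C/EBP family and related transcription factors 5 rose in males and 3 in females and 0 fell. Cebpd, whose product binds C/EBP motifs, rose in males (log2FC 3.31, SE 0.50, edgeR adjusted p = 3.01e-05) and in females (log2FC 2.04, SE 0.50, edgeR adjusted p = 0.00464). Of 3 other fatty acid binding proteins tested, Fabp5 rose in females (log2FC 1.87, SE 0.42, edgeR adjusted p = 0.00264) and in males 0 passed in edgeR, DESeq2 or limma-voom, or had an unadjusted p under 0.05. Of 4 brown adipocyte markers tested 0 passed in either sex in edgeR, DESeq2 or limma-voom, with 2 in females and 1 in males at an unadjusted p under 0.05.

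Ucp1 and Elovl3, also listed as brown adipocyte markers, were not tested, since too few mice of any group reached the minimum count, and the values that follow were chosen after they were seen. Ucp1, the uncoupling protein that defines the brown adipocyte, was 57.1 CPM in the vehicle-treated female F5, 6.59 in F6, 2.28 in M11 and at most 0.695 CPM in the other 20 mice. F5 was also the highest of all mice for Cidea, at 23.6 CPM, followed by F6 at 10.1 CPM, and for Elovl3, at 2.11 CPM. The other listed brown adipocyte markers were highest in other mice. Kcnk3 was 19.6 CPM in F6 and 10.9 in F5, Dio2 5.58 in F7 and 5.01 in F5, and Cox8b 716 in M3 and 453 in F5. Within its group F5 was the highest mouse for Cfd, Retn, Plin1, Cidec, Fabp4 and Pparg. The part of brown adipocytes in those levels was not tested.

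Some markers of other cells also differed between groups. Of the 6 macrophage markers 0 passed within a sex in edgeR, where 3 in each sex had an unadjusted p under 0.05, and DESeq2 called 3 in females and 1 in males and limma-voom 2 and 0. They all had a positive log2FC in females (median 0.79) and 5 of 6 a negative one in males (median -0.56). Between the corticosterone-treated sexes 4 of 6 were lower in males, against 14% of all genes, and their summed level ranged from 62.9 CPM in F8 to 193 CPM in F10 among treated females and from 51.6 to 74.6 CPM among treated males. Of 10 genes of adipocyte precursors and fibroblasts 5 fell in males, against 13.1% of all genes, and 0 rose, and in females 2 fell and 1 rose, against 6% and 7.4%. Their summed level was 397 to 586 CPM in treated males, below the 662 to 1181 CPM of vehicle-treated males. Of 7 endothelial markers 0 passed in either sex in edgeR, with 5 in males and 1 in females at an unadjusted p under 0.05, and DESeq2 and limma-voom each called 1 in males. Of 8 hepatocyte markers 0 passed in either sex in edgeR, DESeq2 or limma-voom, with 2 in females and 0 in males at an unadjusted p under 0.05. Of 5 erythrocyte genes 4 rose in each sex, against 13.2% of all genes in males and 7.4% in females. Of the 10 muscle fiber genes 1 rose and 1 fell in males and 2 fell in females, and their summed level was lowest, at 108623 CPM, in F10. The part of these cells in the adipocyte gene results was not tested.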

How the data were processed

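Quadriceps RNA of 23 mice was sequenced as stranded mRNA libraries with paired reads of 100 bases. Per the labels and the study's methods, the authors aligned reads with STAR 2.7.3a to mm10 and counted them per Ensembl gene with HTSeq 0.12.4, using strand. The deposited values are raw counts, and the entries for reads on no gene, 10.7 to 15.3% of a library, were left out. Symbols and positions came from GENCODE M21, which held 55394 of the 55573 gene IDs. The 9 genes and the lists were chosen with earlier results of these data known.

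A gene was tested if its normalized count exceeded 20 in 4 or more mice of any group, which left 13049 genes, the 9 described among them. The 4 groups were fitted together with edgeR 4.0.16 in R 4.3.3, by the quasi-likelihood test with TMM scaling. P-values were adjusted by Benjamini-Hochberg over all tested genes, with a threshold of 0.01. CPM were computed from TMM-scaled library sizes. SE were taken from the F statistic. CPM per kb used the longest principal transcript. At 3 counts a library reached at most 0.166 CPM, and such floors cover counting error only. Each library is 1 mouse.

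Ratios were log2((count + 1) / (count of the second gene + 1)) and were compared by two-sided exact permutation tests (SciPy 1.17.1), adjusted over 36 comparisons. The named genes are the 9 genes, up to 4 genes of each list by mean level, the 8 genes of most constant ratio to Adipoq and the 3 to each other gene, and Fkbp5 and Tsc22d3. Lists held other adipocyte markers, brown adipocyte markers, secreted factors, receptors, droplet and lipolysis genes, fatty acid binding proteins, transcription factors, precursors and fibroblasts, muscle fibers, endothelial cells, macrophages, hepatocytes and erythrocytes. On simulated data the test recovered 72.4% of genes changed by a log2FC of 1 in males and 64.1% in females, and 92.6% and 96.3% of those changed by 2, among 13049 genes. The changed genes were drawn at random from all tested genes. These shares therefore need not hold for those of the 9 genes that varied widely between mice of a group. Alternatives were DESeq2 1.42.0, limma-voom (limma 3.58.1) with quality weights, median-of-ratios scaling, filterByExpr (15045 genes), no filter (31922 genes), each sex alone, a log2FC beyond 1, each mouse left out, M8 and F10 left out together, F6, F10, M8, M9 and M12 left out together (chosen after seeing the data), the replicate number as a block, and for ratios added counts of 0.5 and 5 and Adipoq or Fabp4 as the second gene.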

Additional observations from a re-analysis of the deposited data

Results flagged for a closer look

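In groups of 5 or 6 mice, a mouse was singled out where its gap to the nearest other mouse was large against the range of its group (Dixon's criterion). Of 36 combinations of gene and group 1 had such a mouse, and of 36 combinations of ratio and group 6 had one, where chance marks about 1 in 20. Lep was 71.6 CPM in M3, far above the other vehicle-treated males and at the level of the corticosterone-treated males. Among log2 ratios to Plin1, that of Cfd was 3.22 in F11, the lowest of the vehicle-treated females. That of Plin4 was 7.47 in F8 and 6.5 in M7, and that of Fabp4 6.33 in F8 and 6.55 in M7, each the highest of its group. That of Pparg was 0.593 in F8, also the highest of its group. F8 and M7 had the lowest Plin1 of their groups, at 2.85 and 1.96 CPM.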

How the results depend on the processing

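Over 81 single values and 2379 alternative values, 2312 kept the call, 35 gained and 32 lost it, and 0 changed direction of a call. The cause of these changes was not tested. Of the 9 genes, 2 passed in males when each sex was fitted alone. In females 1 passed with a log2FC beyond 1, 4 in DESeq2 and 4 in limma-voom, and 2 to 4 with each mouse left out in turn (4 without F5, F4 or F8). For the difference of the responses 1 passed in DESeq2 and 0 to 1 with each mouse left out. Between corticosterone-treated sexes 7 passed in DESeq2, 1 without M8 and F10, and 1 to 7 with each mouse left out. Of the ratios 3 to 5 passed in females and 0 to 3 between treated sexes with each mouse left out, 0 between treated sexes without M8 and F10, and 2 between vehicle-treated sexes with Fabp4 as the second gene. Without F6, F10, M8, M9 and M12, left out together after seeing the data, 0 genes passed between corticosterone-treated sexes. Then 0 ratios passed in males, in females, between vehicle-treated and between corticosterone-treated sexes, with 3 to 6 mice a group left. With so few mice, ratios within a sex and between treated sexes had little or no room to pass.

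With the replicate block, 0 genes passed for the difference of the responses, 0 between vehicle-treated sexes and 0 between corticosterone-treated sexes, where Fabp4 had an edgeR adjusted p of 0.0103 and Pparg of 0.0173. Whether the numbers pair the mice is not stated in the sources used here, and the check that follows cannot settle it. Of 11 same-numbered pairs 7 deviated together with r over 0.1, and r ran from -0.377 to 0.477.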
